A study of Homo sapiens with 12 samples.

Results

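The 39 protein-coding HOX genes were examined in a human lung squamous cell carcinoma line. They were found by symbol, as the names HOXA, HOXB, HOXC or HOXD followed by digits only, among the 58302 Ensembl genes counted in each library. HOXA held 11 of them, HOXB 10, HOXC 9 and HOXD 9.

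HOX genes encode homeodomain transcription factors that give cells their position along the body axis. They lie in 4 clusters, and within a cluster all of them are transcribed from the same strand. The order of the genes, from the 3′ end to the 5′ end, follows the order in which they are used from the head to the tail of the embryo. A gene of one cluster has counterparts, called paralogs, at the same position of the others, and paralogs share most of their DNA-binding domain and often part of their function. Adult tissues and the lines derived from them keep a HOX pattern of their own, held by Polycomb and Trithorax proteins, and the lung is known for *HOXA5* and *HOXB5*. Below, paralog groups 1 to 3 are called anterior (8 genes), groups 4 to 8 central (15 genes) and groups 9 to 13 posterior (16 genes).

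NCI-H520 was made to express *L1-FGGY*, a transcript in which a LINE-1 retrotransposon is joined to the gene *FGGY*, stably from a lentivirus (OV-L1-FGGY), or carried an empty vector (OV-CTRL). RNA of 4 groups of 3 libraries was sequenced. By their labels these were OV-L1-FGGY with DMSO, the same line with 10 μM ML355 (a 12-LOX inhibitor), the same line with 450 μM NVR (a reverse transcriptase inhibitor) and a control with DMSO, whose label names no vector and which was read as OV-CTRL. DMSO was at 0.2% in all 4 groups, those with an inhibitor included, and the medium was replaced 5 h after seeding. The length of the treatment is not given, nor whether each line was 1 clone or a pool, and the labels do not say that replicates were separate cultures, so that p-values measure the spread between these libraries only.

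The libraries held 16242082 to 27004768 counts, of which HOX genes took 0.0249% to 0.0473%. *FGGY* was at 4782, 5206 and 6196 counts in OV-L1-FGGY with DMSO and at 7346, 6290 and 5080 with ML355. It was at 82, 103 and 88 counts in the NVR-labelled libraries and at 91, 87 and 78 in OV-CTRL. The NVR-labelled libraries thus went against the label OV-L1-FGGY, and they are called by their label throughout. On log2 CPM of all genes tested, Pearson's correlation between libraries was 0.979 to 0.993 within a group, 0.933 to 0.972 between groups of a like *FGGY* level and 0.711 to 0.773 across levels. The squamous marker *SOX2* was at 360, 404 and 446 counts in OV-CTRL and at 0 in all 6 libraries with high *FGGY*, while *TRIM29* was at 183 ± 15.1 CPM (counts scaled to a common library size by TMM; mean and SD of 3 libraries) in OV-L1-FGGY with DMSO, 348 ± 43.4 with ML355, 1.69 ± 0.406 in the NVR-labelled libraries and 4.09 ± 0.447 in OV-CTRL. *KRT6A* and *DSG3* were at 0 in all 12 libraries. The summed level of the 8 squamous markers was 175 to 202 CPM in OV-L1-FGGY with DMSO, 301 to 385 with ML355, 10.4 to 19.3 in the NVR-labelled libraries and 21.1 to 25.9 in OV-CTRL, with 3, 2, 3 and 3 markers above 3 counts in every library. In the libraries of high *FGGY* nearly all of this sum was *TRIM29*. The sum thus does not describe the other squamous markers, which were split. *SOX2* and *TP63* went the other way. *TP63* was at 0.709 CPM in OV-L1-FGGY with DMSO, 0.218 with ML355, 2.53 in the NVR-labelled libraries and 3.03 in OV-CTRL. *KRT14* went with *TRIM29*, at 0.386 CPM in OV-L1-FGGY with DMSO, 2.49 with ML355 and 0 in the other groups. The summed level of 3 endothelial markers was 8.89 to 9.41 CPM in OV-L1-FGGY with DMSO and 0.258 to 0.690 in the other groups. Neuroendocrine markers (4) summed to 0.345 to 0.841 CPM at high *FGGY*, 16.4 to 23.7 in the NVR-labelled libraries and 5.20 to 7.57 in OV-CTRL. Adenocarcinoma or alveolar markers (4) summed to 0.345 to 0.789, 7.59 to 10.6 and 4.575 to 5.43 CPM in the same order. Leukocyte markers (4) summed to 9.22 to 12.7 CPM in the NVR-labelled libraries and 2.71 to 4.65 in the other groups. The summed level of 5 fibroblast markers was 341 to 359.8 CPM in OV-L1-FGGY with DMSO, 112 to 122 with ML355, 19.7 to 22.4 in the NVR-labelled libraries and 20.4 to 25.7 in OV-CTRL, with *DCN* at 0 in both of the last groups. All 5 markers were above 3 counts in every library of OV-L1-FGGY with DMSO, 4 with ML355, 1 in the NVR-labelled libraries and 2 in OV-CTRL. The part of these markers in the differences described next was not tested, and the construct cannot be told apart from any other difference between the cells of high and of low *FGGY*.

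HOX RNA was present in every group, with a different set of genes leading in cells of high and of low *FGGY*. A gene was counted as detected in a group when all 3 libraries held more than 3 counts. By this rule 28 of 39 HOX genes were detected in OV-L1-FGGY with DMSO, 25 with ML355, 29 in the NVR-labelled libraries and 31 in OV-CTRL, and 24 were detected in all 4 groups. *HOXA2*, *HOXA4* and *HOXB2* were detected only in the NVR-labelled libraries and in OV-CTRL, and *HOXA9* only in OV-L1-FGGY with DMSO or ML355. The remaining low genes included 7 detected in no group (*HOXB1*, *HOXC5*, *HOXC12*, *HOXD3*, *HOXD4*, *HOXD12* and *HOXD13*). *HOXC12* and *HOXD12* had 0 counts in all 12 libraries, which allows, by counting error only, a level of up to 0.111 CPM in the deepest library and 0.185 CPM in the shallowest.

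**Figure D1:**
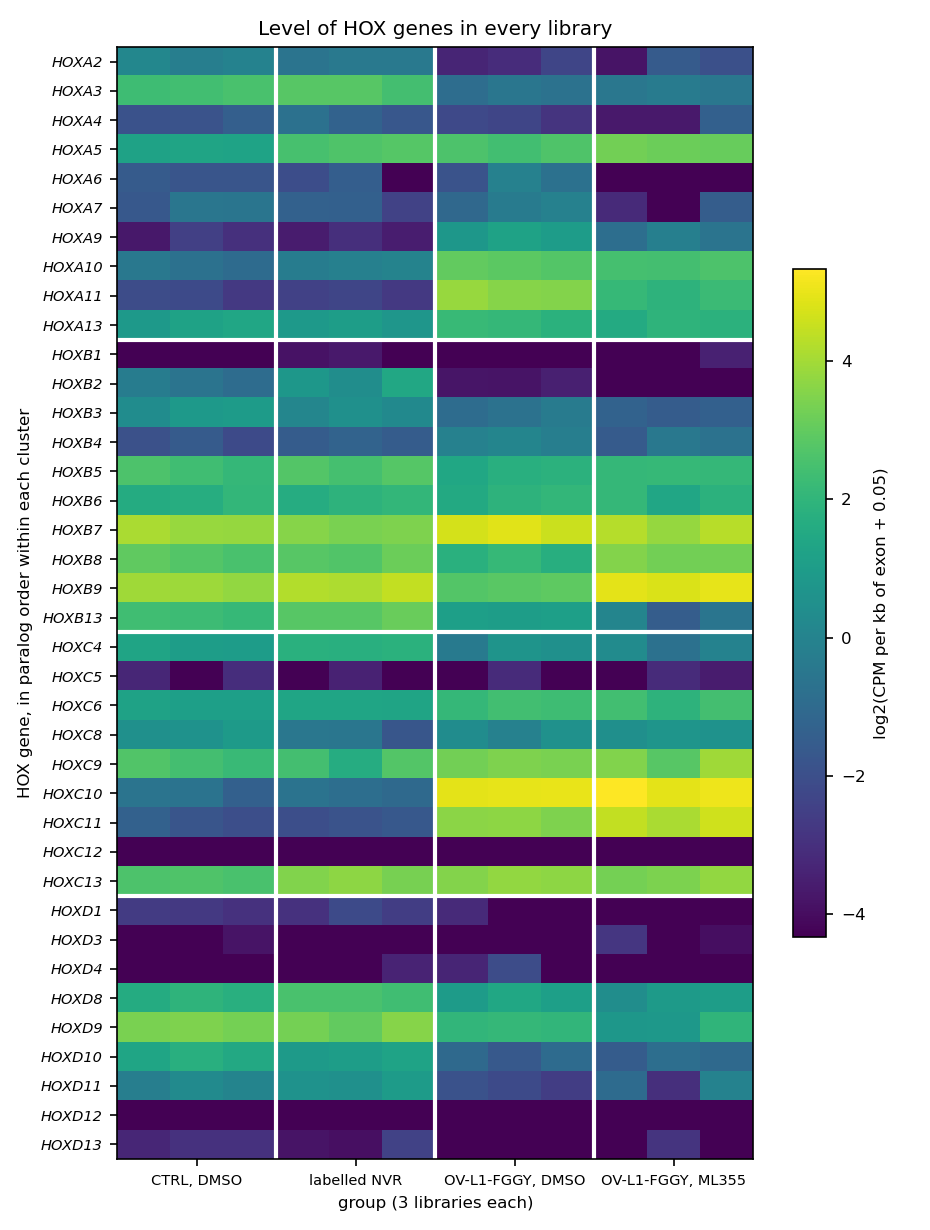
Level of HOX genes (y axis, in paralog order within HOXA, HOXB, HOXC and HOXD) in 12 libraries (x axis, 3 for each group), coloured by log2 of CPM per kilobase of exon plus 0.05. The block from HOXA9 to HOXA11 and the pair HOXC10 and HOXC11 are brighter in OV-L1-FGGY with DMSO or ML355 than in OV-CTRL and the NVR-labelled libraries, and HOXA2, HOXA3 and HOXB2 show the reverse.

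Levels of different genes were compared as CPM per kilobase of merged exon. In OV-CTRL the highest HOX genes were *HOXB7*, at 15.0 ± 1.75 CPM per kilobase (SD, n = 3), and *HOXB9*, at 14.7 ± 1.15, which did not differ beyond their spread. *HOXD9* followed at 10.4 ± 0.649 CPM per kilobase, then *HOXB8* at 6.79 ± 0.947 and *HOXC13* at 6.08 ± 0.191, again within each other's spread. In OV-L1-FGGY with DMSO *HOXC10*, a gene of the lumbar spinal cord and hindlimb in the embryo, came first at 31.1 ± 0.831 CPM per kilobase. *HOXB7* came next at 26.3 ± 2.95, and *HOXC13*, *HOXA11* and *HOXC11* lay together at 12.6 ± 0.888, 12.6 ± 1.35 and 12.1 ± 1.09 CPM per kilobase. With ML355 *HOXC10*, at 34.8 ± 4.86, and *HOXB9*, at 29.7 ± 2.01, led. In the NVR-labelled libraries *HOXB9* led at 19.4 ± 2.04 CPM per kilobase, ahead of *HOXC13* at 11.4 ± 1.35 and *HOXB7* at 11.1 ± 0.715.

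The clusters differed in how their summed level moved between groups. The summed HOXC level was 176, 191 and 182 CPM in OV-L1-FGGY with DMSO and 232, 183 and 243 CPM with ML355, against 57.3, 57.0 and 55.7 in the NVR-labelled libraries and 46.1, 42.3 and 40.4 in OV-CTRL. HOXD went the other way, with 14.4, 16.3 and 14.6 CPM in OV-L1-FGGY with DMSO and 8.62, 9.79 and 15.6 with ML355, against 41.8, 38.7 and 45.9 in the NVR-labelled libraries and 35.7, 42.0 and 36.6 in OV-CTRL. In neither cluster did the libraries of high *FGGY* overlap those of low *FGGY*. HOXA was at 104 ± 6.40 CPM (SD over 3 libraries) in OV-L1-FGGY with DMSO and 72.5 ± 3.53 with ML355, against 60.7 ± 5.12 in the NVR-labelled libraries and 48.1 ± 4.19 in OV-CTRL. HOXB was lowest in OV-L1-FGGY with DMSO, at 89.2, 102 and 94.5 CPM, and at 161, 134 and 156 with ML355, 138, 133 and 159 in the NVR-labelled libraries and 131, 124 and 117 in OV-CTRL. These sums are descriptions, with no test. In bulk RNA, fewer cells that express a gene and less RNA per cell cannot be told apart.

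**Figure D2:**
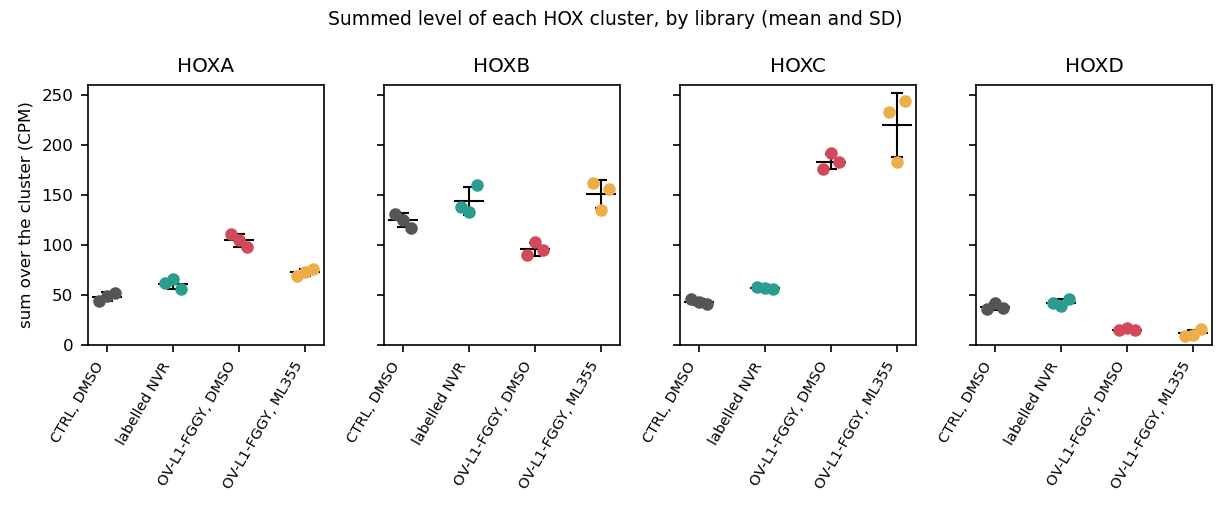
Summed level (y axis, CPM) of HOXA, HOXB, HOXC and HOXD in the 4 groups (x axis). Points are libraries, and the dash with bars is the mean ± SD over 3 libraries. HOXC was at 183 ± 7.88 CPM in OV-L1-FGGY with DMSO and 43.0 ± 2.89 in OV-CTRL, and HOXD at 15.1 ± 1.04 and 38.1 ± 3.41.

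Position within the cluster divided the groups as well. Anterior genes made up 16.6 ± 1.99% of the summed HOX CPM in OV-CTRL (SD, n = 3) and 16.3 ± 1.69% in the NVR-labelled libraries, but 2.19 ± 0.379% in OV-L1-FGGY with DMSO and 1.61 ± 0.228% with ML355. Posterior genes made up 47.7 ± 1.35% and 49.7 ± 1.80% in the first pair of groups and 70.8 ± 1.68% and 73.6 ± 0.961% in the second. The central genes varied least, with summed levels of 90.6 ± 4.62 CPM in OV-CTRL, 103 ± 3.57 in the NVR-labelled libraries, 108 ± 9.04 in OV-L1-FGGY with DMSO and 113 ± 11.9 with ML355. Over the 39 genes, Spearman's correlation of group mean levels was 0.940 between OV-L1-FGGY with DMSO and with ML355, 0.967 between the NVR-labelled libraries and OV-CTRL, and 0.621 to 0.694 for the other pairs, given as a description since the genes differ in length and share libraries.

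The sequences just upstream of the starts of 5 posterior genes are shown as examples of genes that moved in opposite directions between the lines. *HOXA9*, *HOXA10* and *HOXA11* were higher in OV-L1-FGGY, and *HOXD10* and *HOXD11* lower. *HOXA13*, which was higher too, and another start of *HOXA10* are not shown. *HOXC10* and *HOXC11* had no entry among the promoters. Each run is the 250 bases before a RefSeq start (GRCh38.p14), 5′ to 3′ on the strand of the gene, with the CG dinucleotides in capitals, at chr7:27165538-27165787, chr7:27174321-27174570 and chr7:27185233-27185482 on the minus strand and chr2:176116528-176116777 and chr2:176107030-176107279 on the plus strand. The run of *HOXA11* ends directly before its GENCODE start, and the other 4 lie inside the span of their own gene, which has longer transcripts. None of them holds an annotated UTR base.
HOXA9: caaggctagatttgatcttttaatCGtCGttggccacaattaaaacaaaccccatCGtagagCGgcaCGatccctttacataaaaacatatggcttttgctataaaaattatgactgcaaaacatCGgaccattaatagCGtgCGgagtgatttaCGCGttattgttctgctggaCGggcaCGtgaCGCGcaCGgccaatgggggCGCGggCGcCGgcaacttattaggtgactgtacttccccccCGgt
HOXA10: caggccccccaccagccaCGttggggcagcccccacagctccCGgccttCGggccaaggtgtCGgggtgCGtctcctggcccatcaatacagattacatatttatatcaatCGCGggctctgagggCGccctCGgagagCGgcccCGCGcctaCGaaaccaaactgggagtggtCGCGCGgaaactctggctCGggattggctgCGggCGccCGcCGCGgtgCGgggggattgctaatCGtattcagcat
HOXA11: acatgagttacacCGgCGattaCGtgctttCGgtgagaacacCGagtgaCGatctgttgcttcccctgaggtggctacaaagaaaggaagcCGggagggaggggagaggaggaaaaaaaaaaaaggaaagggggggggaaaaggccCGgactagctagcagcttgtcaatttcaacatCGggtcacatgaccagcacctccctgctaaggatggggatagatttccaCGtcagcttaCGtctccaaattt
HOXD10: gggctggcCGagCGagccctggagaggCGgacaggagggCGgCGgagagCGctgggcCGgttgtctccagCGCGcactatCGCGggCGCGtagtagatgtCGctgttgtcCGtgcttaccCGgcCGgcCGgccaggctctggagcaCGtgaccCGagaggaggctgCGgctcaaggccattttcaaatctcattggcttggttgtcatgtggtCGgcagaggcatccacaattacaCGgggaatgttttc
HOXD11: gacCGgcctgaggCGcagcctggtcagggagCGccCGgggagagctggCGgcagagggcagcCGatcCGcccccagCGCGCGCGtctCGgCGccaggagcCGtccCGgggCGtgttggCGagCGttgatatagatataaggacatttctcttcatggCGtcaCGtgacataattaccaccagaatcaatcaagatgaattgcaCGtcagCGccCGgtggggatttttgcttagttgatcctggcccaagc

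CG dinucleotides numbered 20 upstream of *HOXA9*, 24 upstream of *HOXA10*, 11 upstream of *HOXA11* and 23 upstream of both *HOXD10* and *HOXD11*. They numbered 40 upstream of *HOXA13* and 19 at the other start of *HOXA10*, which are not shown. The median was 11 over the 35116 promoters of the table and 19.0 over the 27 starts of the 20 HOX genes that matched it. The letters TATAAA, read on both strands, occurred once each in the runs of *HOXA9* and *HOXA10* and in neither of the HOXD runs shown, nor in that of *HOXA11*. Among starts not shown, they occurred 1 time at the other *HOXA10* start, 0 times at *HOXA13* and 2 times at *HOXD13*. They were in 5 of the 27 HOX starts and in 10.7% of all promoters. TAAT, the core that homeodomains are known to bind, was counted on both strands, and its matches may overlap those of TATAAA. It occurred 6 times upstream of *HOXA9*, 2 times upstream of *HOXA10* and of *HOXD11*, and 1 time upstream of *HOXA11* and of *HOXD10*. Neither *HOXA13* nor the other *HOXA10* start held it. It was in 20 of the 27 HOX starts and in 47.4% of all promoters. A match to these letters is a description of the run and not a binding site.

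OV-L1-FGGY with DMSO was first compared with OV-CTRL, the line with the construct against its control. *HOXA2*, *HOXA3*, *HOXB2* and *HOXB3*, anterior genes, were lower in OV-L1-FGGY, and so were the tested posterior genes of HOXB and HOXD. The tested posterior genes of HOXA and HOXC were higher, *HOXC10* and *HOXA11* by log2 fold changes of 5.92 and 6.33. Of the 39 genes, 30 passed edgeR's filter on low counts and were tested together with all 17849 genes that did. With edgeR's quasi-likelihood test, at a Benjamini-Hochberg adjusted p below 0.01, 12 were higher, beside 32.5% of all genes tested, and 13 were lower, beside 36.2%. These shares were near those of all genes, and nothing particular to HOX genes is read from the counts, here or in the other comparisons. The median log2 fold change of the 30 was -0.50, against -0.11 over all genes. The 12 central genes gave 4 higher and 3 lower, and the 13 posterior genes 8 higher and 5 lower.

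HOXA turned from lower to higher along its length. *HOXA2*, a gene of the hindbrain and the branchial arches, was at 2, 3 and 7 counts in OV-L1-FGGY with DMSO against 58, 49 and 56 in OV-CTRL, a log2 fold change of -3.32 (standard error 0.53, adjusted p = 2.84e-05). *HOXA3*, a gene of the pharyngeal arches and thymus, was at 2.12, 2.79 and 2.47 CPM against 21.4, 22.8 and 24.9, a log2 fold change of -3.22 (standard error 0.17, adjusted p = 4.58e-11). In neither of these anterior genes did the groups overlap. *HOXA5*, which is needed for airway formation in the embryonic lung, was at 10.6, 9.04 and 10.8 CPM against 3.95, 4.22 and 4.07, a log2 fold change of 1.31 (standard error 0.15, adjusted p = 5.91e-07). *HOXA4* and *HOXA7* did not pass the test, with log2 fold changes of -0.94 (adjusted p = 0.221) and 0.46 (adjusted p = 0.458). Of their exon bases, 47.8% and 62.5% are shared with neighbouring or antisense genes, and of those of *HOXA3* 19.8%.

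The 4 posterior HOXA genes were all higher in OV-L1-FGGY with DMSO. *HOXA9*, a gene of blood stem cells that is known for its part in leukaemia, was at 5.11, 7.05 and 5.95 CPM against 0.0841, 0.391 and 0.230, a log2 fold change of 4.63 (standard error 0.39, adjusted p = 1.65e-08). *HOXA10*, known from the uterus and from blood progenitors, was at 29.4, 27.4 and 24.7 CPM against 2.52, 2.07 and 1.73, a log2 fold change of 3.69 (standard error 0.16, adjusted p = 7.36e-12). *HOXA11*, which shapes the forearm and the uterus, was at 37.6, 31.9 and 31.0 CPM against 0.505, 0.469 and 0.269, a log2 fold change of 6.33 (standard error 0.22, adjusted p = 4.17e-13). This was the largest difference among the HOX genes tested, from 7 to 12 counts in OV-CTRL to between 607 and 656. *HOXA13*, of the digits and hindgut, was already at 9.21, 11.6 and 13.1 CPM in OV-CTRL and reached 22.7, 21.8 and 17.8, a log2 fold change of 0.88 (standard error 0.16, adjusted p = 0.000122). *HOXA9*, *HOXA10* and *HOXA11* share 27%, 26.3% and 27.2% of their exon bases with other genes. Neither the strand setting nor the handling of reads over exons of overlapping genes is stated. Reads in these bases may therefore be missing from the counts or come from the other gene. This holds for every HOX gene with shared exon bases, also where no share is given.

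HOXB had its largest fall at the anterior end. *HOXB2*, a hindbrain gene, was at 1, 1 and 2 counts in OV-L1-FGGY with DMSO against 46, 38 and 31 in OV-CTRL, a ratio of 21.5 in favour of OV-CTRL (95% counting interval 8.16 to 80.1; adjusted p = 7.64e-06, edgeR). *HOXB3* was at 3.56, 4.26 and 5.59 CPM against 9.21, 13.3 and 14.1, a log2 fold change of -1.44 (standard error 0.21, adjusted p = 1.03e-05). The central genes were mixed. *HOXB4*, known for expanding blood stem cells, was higher, at 1.78, 2.0 and 1.66 CPM against 0.421, 0.587 and 0.345 and a log2 fold change of 1.99 (standard error 0.37, adjusted p = 0.000124). *HOXB7*, the highest HOXB gene per kilobase in OV-L1-FGGY with DMSO, was at 39.6, 44.7 and 35.8 CPM against 25.8, 21.6 and 20.9, a log2 fold change of 0.81 (standard error 0.14, adjusted p = 7.12e-05). *HOXB5*, a gene of the embryonic lung, was lower, at 4.93, 6.21 and 6.80 CPM against 11.5, 9.46 and 7.86 and a log2 fold change of -0.68 (standard error 0.18, adjusted p = 0.00233). *HOXB8* was lower too, at 8.32, 10.6 and 7.81 CPM against 18.7, 16.0 and 14.2 and a log2 fold change of -0.87 (standard error 0.17, adjusted p = 0.000162). Between them lay *HOXB6*, with 7.40, 9.62 and 10.7 CPM against 7.82, 8.37 and 10.8, which did not pass the test in any comparison (adjusted p = 0.854 here). *HOXB6* shares 32.9% of its exon bases with other genes.

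The posterior HOXB genes were lower. *HOXB9* was at 17.1, 18.8 and 19.5 CPM in OV-L1-FGGY with DMSO against 40.1, 39.1 and 34.5, a log2 fold change of -1.04 (standard error 0.12, adjusted p = 5.78e-07). *HOXB13*, the prostate and tail-end gene of its cluster, was at 6.48, 6.10 and 6.55 CPM against 15.5, 14.7 and 13.2, a log2 fold change of -1.18 (standard error 0.23, adjusted p = 0.000172). In both genes the libraries of each group lay close together and the groups did not overlap. Neither shares an exon base with another annotated gene.

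Most of the rise of HOXC lay in its posterior genes. *HOXC10* (chr12:53985065-53990279) was at 71.5, 74.8 and 75.1 CPM in OV-L1-FGGY with DMSO against 1.43, 1.41 and 0.806, a log2 fold change of 5.92 (standard error 0.19, adjusted p = 1.4e-13). *HOXC11* (chr12:53973126-53977643) was at 40.7, 42.2 and 35.4 CPM against 1.14, 0.782 and 0.652, a log2 fold change of 5.52 (standard error 0.20, adjusted p = 9.4e-13). Neither gene had a library of one group near those of the other, and *HOXC11* shares no exon base with another gene. Next to them, *HOXC9* rose by 0.92 (standard error 0.27, adjusted p = 0.00537) on the log2 scale, to 16.2, 18.3 and 17.2 CPM from 10.9, 8.88 and 7.63. *HOXC13*, which drives hair keratin genes, rose to 27.4, 31.6 and 30.0 CPM from 14.4, 14.7 and 13.8, a log2 fold change of 1.05 (standard error 0.14, adjusted p = 2.81e-06). *HOXC6*, a central gene, was at 14.8, 18.0 and 17.0 CPM against 8.04, 7.35 and 7.40, a log2 fold change of 1.13 (standard error 0.16, adjusted p = 6.43e-06). *HOXC4* and *HOXC8* did not pass, with log2 fold changes of -0.80 (adjusted p = 0.0104) and -0.40 (adjusted p = 0.213), so that of 7 HOXC genes tested 5 were higher and 0 lower.

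All 4 HOXD genes tested were lower. *HOXD8* was at 5.05, 6.99 and 5.64 CPM against 7.91, 10.2 and 8.86, a log2 fold change of -0.61 (standard error 0.18, adjusted p = 0.00722). *HOXD9* was at 7.63, 8.05 and 7.56 CPM against 19.6, 20.7 and 18.3, a log2 fold change of -1.33 (standard error 0.24, adjusted p = 8.15e-05). *HOXD10*, a motor neuron gene of the lumbar cord, was at 1.09, 0.684 and 1.16 CPM against 6.18, 8.29 and 6.94, a log2 fold change of -2.86 (standard error 0.26, adjusted p = 4.41e-08). The fall of *HOXD11*, which acts with *HOXA11* in the forearm, was from 1.73, 2.46 and 2.07 CPM in OV-CTRL to 0.459, 0.368 and 0.252, a log2 fold change of -2.53 (standard error 0.56, adjusted p = 0.000607). *HOXD10* and *HOXD11* share 18.2% and 21.4% of their exon bases with each other, on the same strand. *HOXD8* shares 24.4% of its exon bases with a gene on the other strand. Among the HOXD genes too low to test, *HOXD13* had 3, 5 and 5 counts in OV-CTRL and 0 in OV-L1-FGGY with DMSO, where it was at least 3.24-fold lower against a floor of 3 counts over the group, and *HOXD1* had 5, 5 and 4 counts against 2, 0 and 0, a ratio of 5.22 (95% counting interval 1.20 to 47.4). Neither has a test. *HOXB1*, *HOXC5*, *HOXD3* and *HOXD4* had at most 7 counts in any of the 12 libraries.

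**Figure D3:**
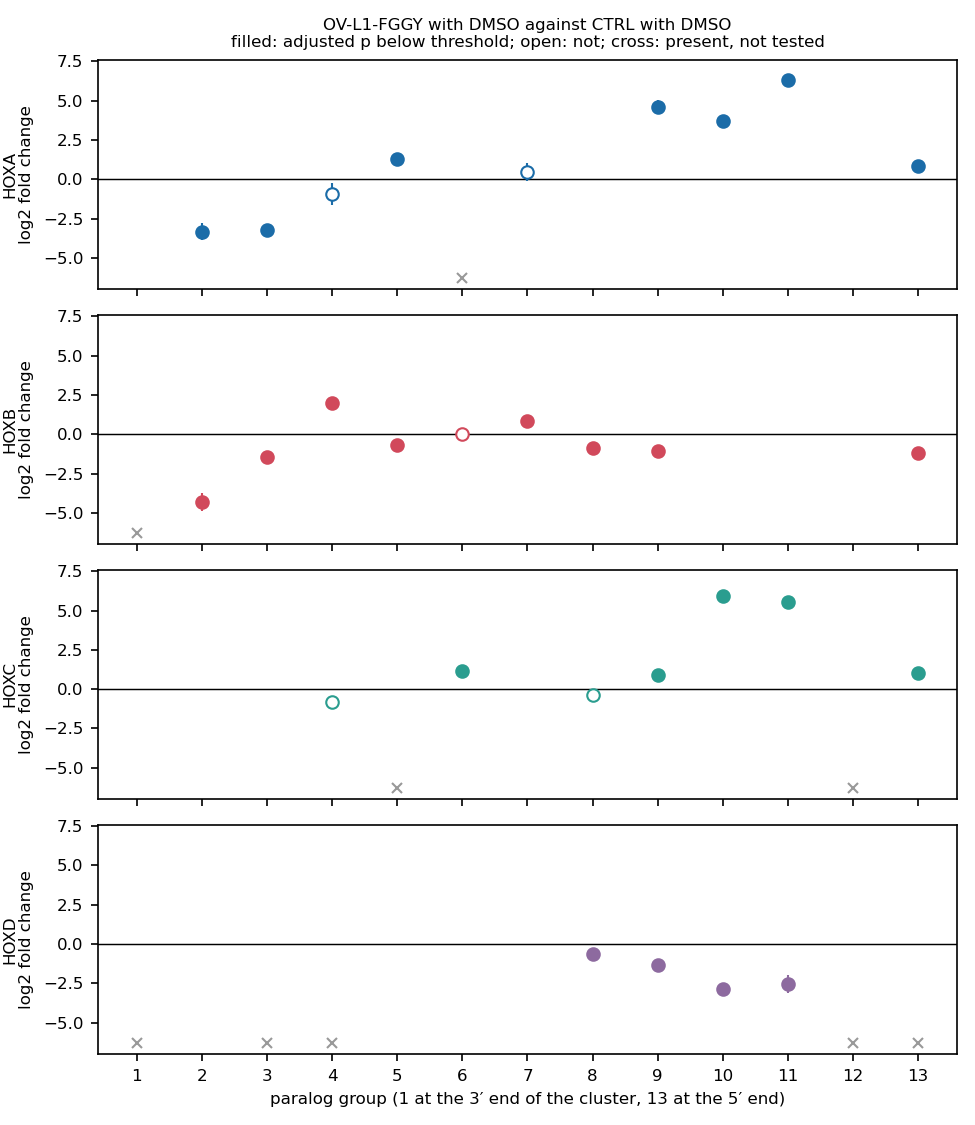
Fitted log2 fold change of OV-L1-FGGY with DMSO against OV-CTRL with DMSO (y axis) by paralog group (x axis), 1 panel for each cluster, with standard errors as bars. Filled points passed an adjusted p of 0.01, open points did not, and grey crosses mark genes that were not tested. HOXA rises from -3.32 at HOXA2 to 6.33 at HOXA11, HOXC reaches 5.92 at HOXC10, and HOXD lies below 0 from HOXD8 to HOXD11. The point of HOXB2 rests on 1, 1 and 2 counts in OV-L1-FGGY.

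Paralogs at the same position moved in opposite directions. In group 9, *HOXA9* and *HOXC9* were higher in OV-L1-FGGY with DMSO, and *HOXB9* and *HOXD9* lower. In groups 10 and 11, the HOXA and HOXC genes were higher and the HOXD gene lower. In group 13, *HOXA13* and *HOXC13* were higher, *HOXB13* was lower and *HOXD13* was not tested. Of the anterior paralogs, *HOXA2* went the same way as *HOXB2* and *HOXA3* the same way as *HOXB3*, all lower. Summed over posterior HOXA genes, the level was 87.5 ± 7.67 CPM against 14.1 ± 1.56 (SD, n = 3), and over posterior HOXC genes 160.1 ± 5.88 against 25.5 ± 2.46. Over posterior HOXD genes it was 9.08 ± 0.105 CPM against 28.9 ± 2.37.

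**Figure D4:**
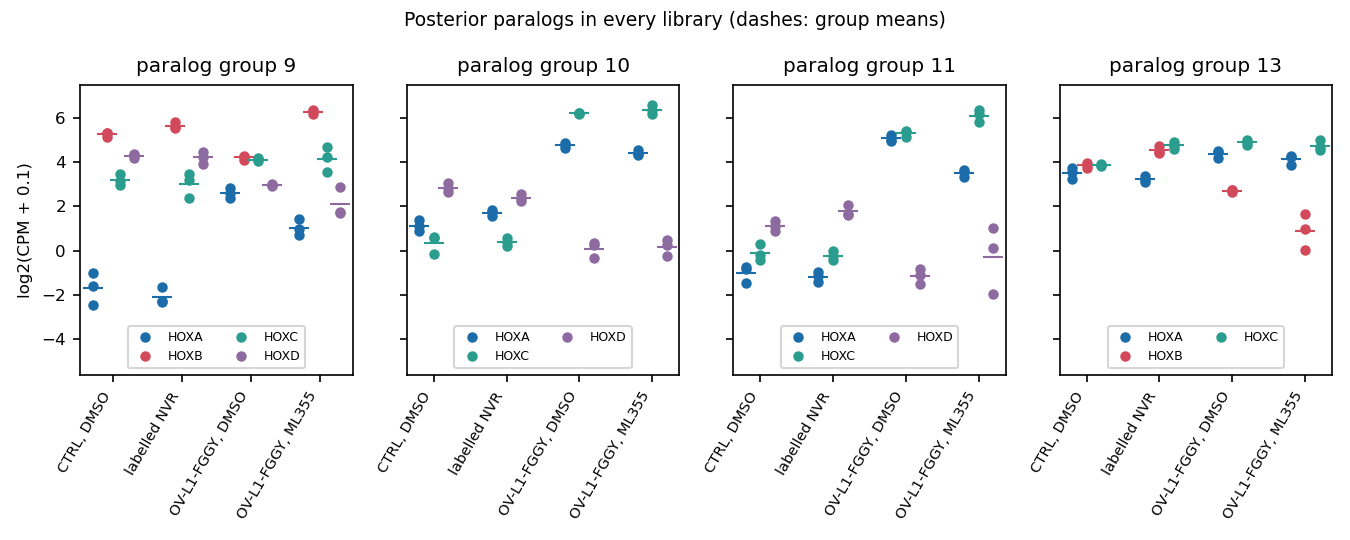
Level of the posterior paralogs of groups 9, 10, 11 and 13 with a tested gene (y axis, log2 of CPM plus 0.1) in the 4 groups (x axis). Points are libraries and dashes group means, coloured by cluster. HOXC10 and HOXC11 lie between 35.4 and 95.0 CPM in the 6 OV-L1-FGGY libraries with DMSO or ML355 and between 0.650 and 1.43 CPM in the other 6.

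The NVR-labelled libraries were next compared with OV-L1-FGGY with DMSO, the comparison that their label implies. It shares the OV-L1-FGGY libraries with the comparison above, so that its values are given beside those and not as a second observation. Of 30 HOX genes tested, 14 were higher, beside 38.2% of all genes, and 11 were lower, beside 35.4%. The median log2 fold change was 0.53, against 0.08 over all genes. *HOXA2*, *HOXA3*, *HOXB2* and *HOXB3* were higher, the 12 central genes gave 4 higher and 4 lower, and the 13 posterior genes 5 higher and 7 lower. By cluster, 3 HOXA genes were higher and 4 lower, 6 HOXB genes higher and 2 lower, 1 HOXC gene higher and 5 lower, and 4 HOXD genes higher and 0 lower.

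*HOXC10* was at 1.40, 1.22 and 1.04 CPM in the NVR-labelled libraries, a log2 fold change of -5.91 (standard error 0.19, adjusted p = 1.73e-13). *HOXA11* was at 0.350, 0.407 and 0.274 CPM, a log2 fold change of -6.55 (standard error 0.23, adjusted p = 4.14e-13). *HOXC11* was at 0.650, 0.741 and 0.878 CPM, a log2 fold change of -5.70 (standard error 0.21, adjusted p = 9.28e-13). In these genes every library labelled NVR lay far below every OV-L1-FGGY library with DMSO. Among the anterior genes, *HOXA3* was at 30.3, 29.8 and 22.9 CPM, a log2 fold change of 3.49 (standard error 0.17, adjusted p = 1.56e-11). *HOXB2* was at 83, 84 and 121 counts, a ratio of 62.2 over OV-L1-FGGY with DMSO (95% counting interval 24.0 to 229.6; adjusted p = 8.85e-08, edgeR). *HOXD10* and *HOXD11* were higher by 2.39 (standard error 0.26, adjusted p = 3.63e-07) and 3.20 (standard error 0.55, adjusted p = 4.92e-05) on the log2 scale. *HOXA5*, *HOXB6* and *HOXC13* did not pass, with log2 fold changes of 0.09 (adjusted p = 0.582), 0.03 (adjusted p = 0.892) and -0.14 (adjusted p = 0.357), nor did *HOXA4* and *HOXA7*, at 1.52 (adjusted p = 0.0455) and -1.31 (adjusted p = 0.0541).

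ML355 was compared with DMSO within OV-L1-FGGY, where both groups held *FGGY* RNA at a high level. Among the genes that passed the test, *HOXB9* and *HOXB8* had the largest rise, and *HOXA9*, *HOXA11* and *HOXB13* were among those that fell. Of 30 tested, 4 were higher, beside 21.3% of all genes, and 6 were lower, beside 23.5%. The median log2 fold change was -0.11, against 0 over all genes. HOXA gave 1 higher and 3 lower, HOXB 2 higher and 3 lower, HOXC 1 higher and 0 lower, and HOXD 0 of 4 in either direction.

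*HOXB9* was at 79.1, 70.8 and 80.3 CPM after ML355 and 17.1, 18.8 and 19.5 with DMSO, a log2 fold change of 2.05 (standard error 0.12, adjusted p = 1.41e-09). Its neighbour *HOXB8* rose to 28.0, 23.3 and 23.3 CPM from 8.32, 10.6 and 7.81, a log2 fold change of 1.48 (standard error 0.17, adjusted p = 1.67e-06). *HOXB13*, at the far end of the same cluster, fell instead, with 3.06, 0.927 and 1.89 CPM against 6.48, 6.10 and 6.55 and a log2 fold change of -1.69 (standard error 0.27, adjusted p = 5.07e-05). The ML355 libraries of *HOXB13* were widely spread without reaching those with DMSO, whereas those of *HOXB9* lay close together. *HOXB7* was lower, at 28.8, 21.0 and 29.4 CPM and a log2 fold change of -0.60 (standard error 0.14, adjusted p = 0.00191). *HOXB3*, further towards the anterior end, was at 2.66, 2.21 and 2.52 CPM against 3.56, 4.26 and 5.59, a log2 fold change of -0.86 (standard error 0.23, adjusted p = 0.00495). The central genes *HOXB4*, *HOXB5* and *HOXB6* did not pass, with log2 fold changes of -0.82 (adjusted p = 0.0535), 0.41 (adjusted p = 0.0597) and -0.03 (adjusted p = 0.92). *HOXB2* had 1, 1 and 2 counts with DMSO and 0 in all 3 libraries with ML355, both at or under 3 counts a library, so that no fold change is given.

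In HOXA, *HOXA9* and *HOXA11* fell with ML355 while staying above OV-CTRL. *HOXA9* was at 1.53, 2.58 and 1.84 CPM against 5.11, 7.05 and 5.95 with DMSO, a log2 fold change of -1.61 (standard error 0.30, adjusted p = 0.000308). *HOXA11* was at 11.6, 9.84 and 12.4 CPM against 37.6, 31.9 and 31.0, a log2 fold change of -1.57 (standard error 0.15, adjusted p = 3.91e-07). *HOXA10*, which lies between them, did not pass, with 20.5, 20.1 and 23.0 CPM against 29.4, 27.4 and 24.7 and a log2 fold change of -0.36 (standard error 0.14, adjusted p = 0.0358), although its groups did not overlap. *HOXA7* was at 3, 0 and 14 counts against 18, 35 and 43, a log2 fold change of -2.51 (standard error 0.69, adjusted p = 0.00517). *HOXA6*, too low to test, had 0 counts in all 3 libraries with ML355 and 5, 22 and 14 with DMSO, at least 14.3-fold lower against a floor of 3 counts over the group. *HOXA6* and *HOXA7* share 40.1% and 62.5% of their exon bases with other genes, among them the antisense gene *HOXA-AS3*. The lung gene *HOXA5* rose, at 16.7, 15.4 and 14.6 CPM against 10.6, 9.04 and 10.8, a log2 fold change of 0.62 (standard error 0.14, adjusted p = 0.00133).

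In HOXC, *HOXC11* rose to 70.7, 55.3 and 80.2 CPM from 40.7, 42.2 and 35.4, a log2 fold change of 0.80 (standard error 0.15, adjusted p = 0.000219). *HOXC10* did not pass, with 95.0, 72.2 and 80.4 CPM and a log2 fold change of 0.16 (standard error 0.14, adjusted p = 0.326). *HOXC9* varied among the ML355 libraries more than between the groups, at 18.5, 11.6 and 25.9 CPM. The HOXD genes gave log2 fold changes of -0.39 (adjusted p = 0.102) for *HOXD8*, -0.77 (adjusted p = 0.0166) for *HOXD9*, 0.09 (adjusted p = 0.834) for *HOXD10* and 1.51 (adjusted p = 0.0433) for *HOXD11*, and *HOXD11* in particular was at 20, 3 and 37 counts in the 3 ML355 libraries.

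The NVR-labelled libraries were also compared with OV-CTRL with DMSO, the group whose *FGGY* level they shared. *HOXA5*, *HOXC13*, *HOXB2*, *HOXD8* and *HOXB9* were among the higher genes and *HOXC8* was lower. Of 30 tested, 6 were higher, beside 14.5% of all genes, and 1 was lower, beside 15.3%. The median log2 fold change was 0.15, against 0 over all genes. *HOXA5* was at 9.66, 10.8 and 11.8 CPM against 3.95, 4.22 and 4.07, a log2 fold change of 1.40 (standard error 0.15, adjusted p = 2.43e-06). *HOXC13* was at 26.7, 30.3 and 24.0 CPM against 14.4, 14.7 and 13.8, a log2 fold change of 0.92 (standard error 0.14, adjusted p = 6.77e-05). Neither of these genes had overlapping groups.

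*HOXB2*, *HOXD8* and *HOXB9* were higher as well, by smaller margins or with wider spread. *HOXB2* was at 4.15, 3.11 and 6.64 CPM against 1.94, 1.49 and 1.19, a log2 fold change of 1.58 (standard error 0.33, adjusted p = 0.00151). *HOXD8* was at 15.3, 15.3 and 13.3 CPM against 7.91, 10.2 and 8.86, a log2 fold change of 0.70 (standard error 0.18, adjusted p = 0.00443). *HOXB9* was higher by 0.40 (standard error 0.11, adjusted p = 0.00926) on the log2 scale and lost its call in 14 of 20 alternative settings. *HOXC8*, a brachial motor neuron gene, was lower, at 1.60, 1.55 and 0.604 CPM against 3.32, 3.52 and 4.49, a log2 fold change of -1.56 (standard error 0.30, adjusted p = 0.00069). Without the third OV-CTRL library 4 HOX genes passed rather than 7. The genes that separated OV-L1-FGGY with DMSO from OV-CTRL most, *HOXA11*, *HOXC10* and *HOXC11*, gave log2 fold changes of -0.23 (adjusted p = 0.671), 0.02 (adjusted p = 0.964) and -0.18 (adjusted p = 0.649) here.

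The 2 inhibitors were then set side by side, each against the DMSO group of a like *FGGY* level, and the difference between both changes was tested, with no library shared by both. The doses were 10 μM and 450 μM and the lines were not the same by *FGGY* level, so that inhibitor, dose and line cannot be told apart. *HOXA5* and *HOXB9* were higher in both comparisons, 8 genes passed with ML355 and not in the NVR-labelled libraries, 5 the other way round, and 15 in neither. The difference itself passed an adjusted p of 0.01 for 9 HOX genes, beside 34.1% of all genes tested. It passed for 2 of the 8, for 4 of the 5, for both genes that were higher in each comparison and for 1 of the 15, so that most genes that passed with ML355 alone are not shown to differ between the comparisons. The NVR-labelled change exceeded that of ML355 by 2.36 (standard error 0.34, adjusted p = 3.61e-05) on the log2 scale for *HOXB13*, whose change with ML355 was -1.69 and in the NVR-labelled libraries 0.67. It was lower for *HOXB9* and *HOXB8*, with differences of -1.65 (standard error 0.16, adjusted p = 7.8e-07) and -1.35 (standard error 0.23, adjusted p = 0.000174).

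**Figure D5:**
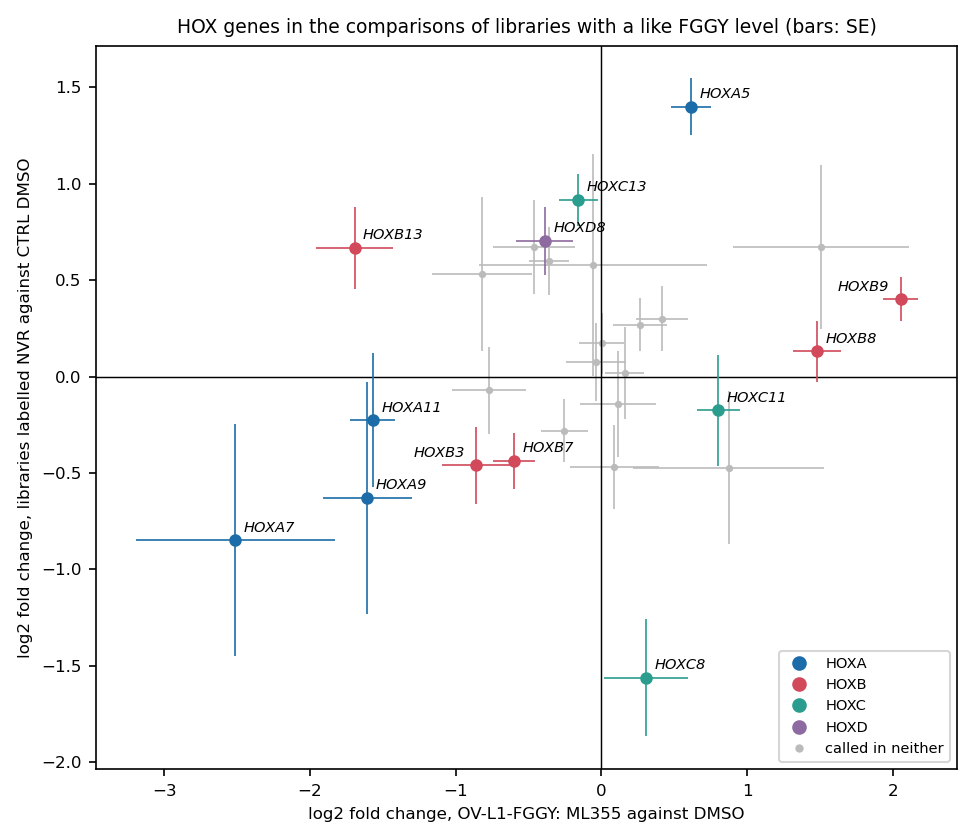
Fitted log2 fold change of each tested HOX gene with ML355 against DMSO in OV-L1-FGGY (x axis) and in the NVR-labelled libraries against OV-CTRL with DMSO (y axis), with standard errors as bars. Genes called in either comparison are coloured by cluster and named, those called in neither are grey, and HOXB2 is left out for its low counts on the x axis. HOXB9 lies at 2.05 and 0.40, HOXA5 at 0.62 and 1.40, and HOXB13 at -1.69 and 0.67.

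Other gene lists were read against the same shares of all genes as the HOX genes, and nothing particular to a list is read from its counts. With ML355 these shares were 21.3% higher and 23.5% lower, and in the NVR-labelled libraries against OV-CTRL 14.5% and 15.3%. The first list held the non-coding RNA genes within the clusters. Of 18 listed, 16 were tested, and in OV-L1-FGGY with DMSO against OV-CTRL 10 were higher and 3 lower, beside 32.5% and 36.2% of all genes, with a median log2 fold change of 1.51 against -0.11 over all genes. *HOTAIR*, which lies between *HOXC11* and *HOXC12*, was at 98, 113 and 117 counts against 14, 9 and 7, a log2 fold change of 3.85 (standard error 0.34, adjusted p = 3.17e-08). *HOXA11-AS*, the antisense partner of *HOXA11*, was at 86, 99 and 103 counts against 5, 8 and 11, a log2 fold change of 3.98 (standard error 0.33, adjusted p = 1.44e-08). *HAGLROS*, beside the HOXD genes, was at 53, 97 and 109 counts against 0, 2 and 0, a ratio of 173.5 (95% counting interval 47.5 to 1440), where the HOXD genes tested were lower. With ML355, 3 of the 16 were higher and 5 lower, among them *HAGLR*, which fell by 2.49 on the log2 scale (adjusted p = 1.48e-05, edgeR), and *HOTAIRM1*, at the anterior end of HOXA, which rose by 0.98 (standard error 0.20, adjusted p = 0.00046). In the NVR-labelled libraries against OV-CTRL, 4 were higher and 1 lower, and *HOTAIRM1* was higher by 1.44 (standard error 0.23, adjusted p = 0.000163). The strand setting and the handling of reads over exons of overlapping genes are not stated. For an antisense gene and its partner, reads in shared bases may therefore be missing or counted for the wrong gene.

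The genes that flank the clusters moved in both directions. Of 14 listed 10 were tested, and 5 were higher and 2 lower in OV-L1-FGGY with DMSO than in OV-CTRL, beside 32.5% and 36.2% of all genes, 2 higher and 2 lower with ML355, and 3 higher and 1 lower in the NVR-labelled libraries against OV-CTRL. *CALCOCO1*, next to HOXC, was higher by 1.31 (standard error 0.13, adjusted p = 1.68e-07) on the log2 scale in OV-L1-FGGY with DMSO, and *CBX5*, on the other side of that cluster, was lower, at -0.84 (standard error 0.10, adjusted p = 1.05e-06).

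HOX proteins bind DNA together with TALE homeodomain proteins of the PBX, MEIS and PKNOX families. Of 10 tested, 4 were higher and 3 lower in OV-L1-FGGY with DMSO than in OV-CTRL, beside 32.5% and 36.2% of all genes. *MEIS3* was at 16.4 ± 2.24 CPM against 85.6 ± 11.6 (SD over 3 libraries), a log2 fold change of -2.38 (standard error 0.16, adjusted p = 1.34e-09), and *MEIS1*, the partner of posterior HOXA proteins in blood cells, was at 6.77 ± 0.890 CPM against 1.71 ± 0.163, a log2 fold change of 1.98 (standard error 0.23, adjusted p = 6.22e-07). With ML355, 2 were higher and 5 lower. *MEIS3* fell further, to 6.24 ± 0.531 CPM, a log2 fold change of -1.40 (standard error 0.17, adjusted p = 4.74e-06). In the NVR-labelled libraries against OV-CTRL, 1 was higher and 3 were lower, and *MEIS3* was the higher gene, by 0.81 (standard error 0.15, adjusted p = 0.000488) on the log2 scale.

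Among the complexes that hold HOX clusters silent or active, both directions occurred. Of 28 Polycomb genes tested, 12 were higher and 8 lower in OV-L1-FGGY with DMSO than in OV-CTRL, beside 32.5% and 36.2% of all genes. *PCGF2*, a subunit of Polycomb repressive complex 1, was lower, at -2.62 (standard error 0.17, adjusted p = 9.53e-10) on the log2 scale, and *MTF2*, which brings Polycomb repressive complex 2 to CG-rich DNA, was higher by 2.10 (standard error 0.16, adjusted p = 3.98e-09). Of 16 Trithorax and COMPASS genes and H3K27 demethylases, 5 were higher and 8 lower, among them the methyltransferase *KMT2B*, at -2.77 (standard error 0.18, adjusted p = 6.4e-10), and the demethylase *KDM6B*, at -1.95 (standard error 0.14, adjusted p = 2.89e-09). With ML355 10 Polycomb genes were higher and 4 lower, and 6 of the Trithorax list higher and 3 lower. *KDM6B* then rose by 1.94 (standard error 0.14, adjusted p = 1.57e-08) and *PHF1*, a Polycomb repressive complex 2 partner, by 2.01 (standard error 0.14, adjusted p = 1e-08). In the NVR-labelled libraries against OV-CTRL 2 Polycomb genes were higher and 9 lower, with *EZH2*, the H3K27 methyltransferase, at -1.17 (standard error 0.10, adjusted p = 4.5e-07), and 1 of the Trithorax list was higher and 5 lower.

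Cohesin and CTCF fold the clusters into loops. Of 8 such genes tested, 6 were higher and 0 lower in OV-L1-FGGY with DMSO than in OV-CTRL, beside 32.5% and 36.2% of all genes, with a median log2 fold change of 1.09 against -0.11 over all genes. *CTCF*, named after its values were seen, did not pass (log2 fold change 0.29 (adjusted p = 0.109)). *NIPBL*, the cohesin loader, was at 239 ± 17.3 CPM against 24.8 ± 5.00 (SD over 3 libraries), a log2 fold change of 3.26 (standard error 0.16, adjusted p = 1.99e-11). With ML355 1 was higher and 1 lower, and in the NVR-labelled libraries 0 were higher and 7 lower than in OV-CTRL, with *SMC1A* at -1.79 (standard error 0.19, adjusted p = 2.14e-06).

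Retinoic acid, a known inducer of anterior HOX genes, is made by ALDH1A enzymes and read by RAR receptors. Of 12 genes of this kind tested, 3 were higher and 6 lower in OV-L1-FGGY with DMSO than in OV-CTRL, beside 32.5% and 36.2% of all genes. *ALDH1A1* had 139426, 150477 and 155581 counts in OV-CTRL, 49457, 73574 and 37780 in the NVR-labelled libraries and 0 in every OV-L1-FGGY library with DMSO or ML355. The receptor *RARA* was lower in OV-L1-FGGY with DMSO, at -3.64 (standard error 0.17, adjusted p = 1.73e-11) on the log2 scale, and *RARG* was higher by 2.35 (standard error 0.11, adjusted p = 1.31e-11). *RARB* had 32, 42 and 55 counts with DMSO and 0 in all 3 libraries with ML355, at least 44.9-fold lower against a floor of 3 counts over the group. With ML355 1 gene of the list was higher and 4 lower, and in the NVR-labelled libraries against OV-CTRL 0 were higher and 2 lower. Of the 6 related ParaHox and caudal genes 1 was tested, *CDX2*, which was named after its values were seen. It was at 0 in OV-L1-FGGY with DMSO and with ML355, at 28, 25 and 19 counts in OV-CTRL, at least 17.9-fold higher, and at 21, 31 and 21 in the NVR-labelled libraries.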

How the data were processed

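The authors deposited 1 table of raw counts per gene, made per the labels and methods with STAR 2.5.3a on hg38 and HTSeq 0.11.2. The annotation release and the strand setting are not given in the sources used here, and the library kit is named differently in the labels and the methods. Coordinates and exon lengths came from GENCODE 44, which matched 57532 of 58302 genes. Columns named DMSO were taken as the control group, since no other group was left for them. Counts were fitted with edgeR 4.0.16 (R 4.3.3; TMM scaling, filterByExpr, robust quasi-likelihood test) over all 12 libraries, 17849 genes, with Benjamini-Hochberg adjustment and a threshold of 0.01. limma voom (3.58.1), the test of the study's methods, DESeq2 1.42.0, other scalings, filters, thresholds, a replicate block and leaving out each library were the alternatives. CPM are counts relative to the TMM-scaled library size, and SDs are over 3 libraries. Gene detection used a floor of 3 counts, and ratios carry exact 95% counting intervals, for counting error only. The fit was tested on simulated data in which few genes changed, in the ML355 group only. That test did not cover comparisons across *FGGY* levels, where most genes were called. Python 3.11.15 (pandas 2.3.3, numpy 2.4.6, matplotlib 3.10.9) gave the sums, motifs and plots. The HOX genes and the 8 gene lists beside them were chosen with earlier results of these data known. Of the other lists at most 3 genes per comparison were named, those with the smallest adjusted p provided that they averaged 1 CPM or more across the libraries, and values per library were given for HOX genes that averaged 1 CPM or more in a group. *CDX2* and *CTCF* were named after their values were seen. Depth limited the genes near the floor, and only levels above 0.111 to 0.185 CPM could be detected. Results for 1 HOX gene and for some genes of the other lists are not reported here, though counts and sums include them.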

Additional observations from a re-analysis of the deposited data

Results flagged for a closer look

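For 9 HOX genes the change in the NVR-labelled libraries against OV-CTRL differed from the change with ML355 in OV-L1-FGGY, by edgeR's quasi-likelihood test of the difference with Benjamini-Hochberg adjustment. The differences, NVR-labelled change minus ML355 change on the log2 scale, were, among others, 0.78 for *HOXA5*, 0.96 for *HOXA10*, 2.36 for *HOXB13*, 1.07 for *HOXC13* and 1.09 for *HOXD8*. They were -1.35 for *HOXB8*, -1.65 for *HOXB9* and -1.87 for *HOXC8*. The difference of *HOXA5* lost its call in 8 of its alternative settings and that of *HOXD8* in 1. *HOXA10* passed in neither comparison alone, with log2 fold changes of -0.36 (adjusted p = 0.0358) with ML355 and 0.60 (adjusted p = 0.0115) in the NVR-labelled libraries. *HOXC8* was at 3.25, 3.86 and 3.57 CPM with ML355 and 2.98, 2.16 and 3.48 with DMSO, against 1.60, 1.55 and 0.604 and 3.32, 3.52 and 4.49 on the other side. The share of all genes tested that passed the same test was 34.1%. Inhibitor, dose and *FGGY* level cannot be told apart in these differences.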

How the results depend on the processing

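No HOX gene that passed the test changed direction under any of the alternatives for tests, scaling, filters or left-out libraries, among 2848 single-gene values that kept their side of the threshold, 42 that passed it only under the alternative and 67 that lost it. Of the 20 settings, all kept 6 of 10 calls with ML355 (lost under some: *HOXA5*, *HOXA7*, *HOXB3*, *HOXB7*), 4 of 7 in the NVR-labelled libraries against OV-CTRL (*HOXB2*, *HOXB9*, *HOXD8*), 24 of 25 against OV-L1-FGGY with DMSO (*HOXC8*), 21 of 25 for OV-L1-FGGY with DMSO against OV-CTRL (among them *HOXB5*, *HOXC9*, *HOXD8*) and 6 of 9 differences (among them *HOXA5*, *HOXD8*). Leaving out 1 library gave 7 to 12, 4 to 8, 24 to 25, 21 to 26 and 7 to 10 HOX genes in the same order, with 4 without the third OV-CTRL library. Requiring a log2 fold change of 1 or more in size left 6 genes with ML355 and 4 in the NVR-labelled libraries against OV-CTRL, and an adjusted p under 0.05 gave 11 there and 14 differences, since these alter the threshold itself. Scaling by library size alone turned 4 higher and 6 lower with ML355 into 3 and 8, and 6 higher and 1 lower in the NVR-labelled libraries against OV-CTRL into 4 and 2, with the median of all genes at -0.13 and -0.15 in those comparisons. The same scaling moved that median from 0.08 to -0.16 in the NVR-labelled libraries against OV-L1-FGGY with DMSO.

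With the replicate number as a block the counts of HOX genes called were 10, 6, 25, 25 and 9 in the same order, and *HOXB9* in the NVR-labelled libraries against OV-CTRL lost its call (adjusted p = 0.0165, edgeR). Correlations of same-numbered libraries' deviations from their group means lay between -0.34 and 0.16. At most 1 of 3 pairs in a comparison correlated best with its own number. These values showed no pairing by number, but with so few pairs they cannot exclude that same-numbered libraries shared a day or a culture.

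Scaling by library size alone put the summed level in OV-L1-FGGY with DMSO at 112.9 CPM for HOXA, 103 for HOXB, 198 for HOXC and 16.4 for HOXD, and in the NVR-labelled libraries at 51.9 for HOXC (58.6 with DESeq2 size factors) and 38.3 for HOXD. Per kilobase of exon the sums in OV-L1-FGGY with DMSO, with ML355, in the NVR-labelled libraries and in OV-CTRL were 34.5, 24.7, 19.5 and 13.8 for HOXA, 47.6, 66.7, 58.9 and 52.3 for HOXB, 73.4, 85.6, 23.7 and 18.3 for HOXC and 7.04, 5.12, 19.4 and 17.9 for HOXD, another unit with the same order of groups within each cluster.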
